A study of Oryctolagus cuniculus with 8 samples.

Results

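Collagens, laminins and integrins were followed in RNA sequencing of 8 retinas of male Chinchilla rabbits, a domestic rabbit breed, kept on 4 diets. Members were the protein-coding genes whose symbol begins with COL, LAMA, LAMB, LAMC, ITGA or ITGB followed by a digit. The table held 62 such genes among 19293 protein-coding genes, and 41 of them reached 1 FPKM (fragments scaled by gene length and sequencing depth) in at least 2 libraries. These 41 were 22 of 33 collagens, 6 of 8 laminins, 11 of 19 integrins and 2 genes that only share the name. COL4A3BP encodes a ceramide transfer protein and not a collagen, and ITGB1BP2 encodes a muscle protein that binds the integrin beta 1 tail and is not a subunit. The 41 were tested among 12204 protein-coding genes that passed the same limit.

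All rabbits were wild type, were 12 to 16 weeks old at the start and about 10 months old at the end of 6 months of feeding, and 2 retinas were sequenced for each diet. ND rabbits received standard chow. HFD chow had lard at 10% and cholesterol at 0.5% added, HSD chow had 40% sucrose, and HFSD chow had the lard and cholesterol of the HFD together with 35% sucrose. The sucrose content of HSD and HFSD therefore differed. The labels do not state whether the paired retinas of a diet came from different rabbits, so the p-values below measure the spread between these samples, which may be technical. The 3 comparisons with ND share the same ND retinas, and their values are given side by side.

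Collagens are triple helices of alpha chains. The fibrillar collagens II, V and XI with the fibril-associated collagen IX form the fibrils of the vitreous and of cartilage, whereas collagen IV forms the network of basement membranes. Laminins are trimers of an alpha, a beta and a gamma chain that polymerise on the cell surface, and the inner limiting membrane, the vessels of the retina and Bruch's membrane under the pigment epithelium are all built on collagen IV and laminin. Integrins are receptors of an alpha and a beta subunit that bind these proteins and link them to the actin cytoskeleton.

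The recovered library depths by which FPKM had been divided lay between 15764577 and 22785832 fragments. Rod and cone markers summed to 36000 to 50200 FPKM in the 8 libraries. At an unadjusted p under 0.05 by limma, 3 of 12 tested rod and cone genes were higher with sucrose and 0 lower, beside 9.17% and 9.16% of all genes. They were the cone genes PDE6C, GNAT2 and ARR3. Of the 12, 1 was called (0.344% of all genes), PDE6C, which was higher (23.6 to 30.5 FPKM without sucrose and 38.7 to 50.9 with it, log2 difference 0.709, limma adjusted p = 0.0311). That call was lost in 9 of 17 alternatives, among them the fit without HSD retina 2 (0.106). Skeletal muscle genes summed to 650 FPKM in HSD retina 2 and to 40.5 to 48.4 in the other retinas. Myelin genes summed to 727 FPKM in ND retina 1, 98.7 in ND retina 2, 480 and 348 in the HFD retinas and 46.8 to 160 in the sucrose-fed retinas. Pigment epithelium markers (13 of 15 above the limit) summed to 628 and 774 FPKM (ND), 477 and 461 (HFD), 314 and 268 (HSD) and 274 and 213 (HFSD), and none was at 0 in every library. Müller glia markers summed to 4160 to 5200 FPKM without sucrose and to 2950 to 3290 with it, and astrocyte markers to 5190 to 7090 and 3470 to 4270. Microglia markers summed to 17.7 to 33.3 FPKM without sucrose and 13.1 to 18.3 with it. A negative difference with sucrose was found for 12 of 13 tested pigment epithelium genes and 10 of 12 Müller glia genes. The same held for all 6 astrocyte, all 7 myelin and all 10 microglia genes tested, beside 51.3% of all genes. The part of these cell types in the results below was not tested. In bulk tissue, fewer cells of a type and less RNA per cell cannot be told apart. The results were therefore also computed without ND retina 1, without HSD retina 2 and without both.

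The levels of the members, shown in the plot of all members by retina, differed by role. The most abundant were integrin beta 5 and beta 1 and chains of collagens II, V and IX, and collagens I and III were below 1 FPKM in most retinas. ITGB5, which pairs with alpha V, had the highest mean at 75.9 FPKM, followed by COL2A1 at 68.5, COL9A2 at 68.4, ITGB1 at 43.2 and COL5A3 at 40.7. These neighbours overlapped across libraries: ITGB5 ranged from 65.6 to 88.0 FPKM and COL2A1 from 49.8 to 101. Among the 21 genes below the limit, the highest value was 1.11 FPKM, reached by ITGA5 in 1 library. Just outside the limit lay LAMA1 with a highest value of 0.975 and ITGB2 with 0.973, and just inside it lay COL1A1, COL1A2, COL3A1, COL4A6 and ITGB1BP2, each at 1 FPKM or more in 2 libraries. The alpha subunits of the collagen receptors (ITGA1, ITGA2, ITGA10 and ITGA11) were all below the limit, 0 of 4, whereas all 3 laminin-binding alpha subunits (ITGA3, ITGA6 and ITGA7) passed it. Another 19 symbols of these families, among them COL18A1, COL4A5, COL5A1, COL6A1 and LAMA5, were not analysed here.

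**Figure D1:**
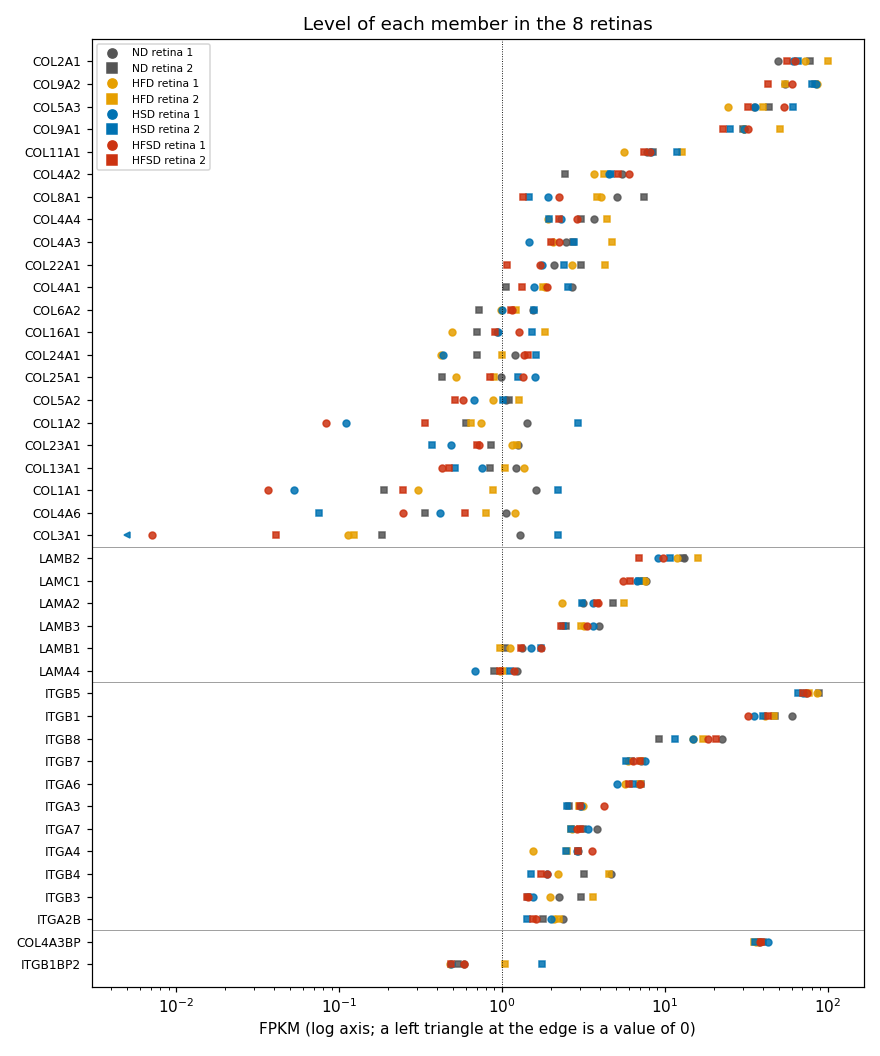
FPKM of the 41 members in each retina, on a log axis; colours are diets, circles are retina 1 and squares retina 2, and the dotted line is 1 FPKM. Collagens, laminins, integrins and the 2 genes that only share the name are separated by lines. The retinas lie close together for ITGB5 (65.6 to 88.0) and far apart for COL3A1 (0 to 2.21).

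No member was called in any of the 6 comparisons. By limma with Benjamini-Hochberg adjustment over all 12204 genes, an adjusted p under 0.05 was reached by 0 of 41 members for HFD, HSD and HFSD against ND, where 0.00819%, 0.0574% and 0.0164% of all genes were called. It was also reached by 0 members for sucrose against no sucrose (0.344% of all genes), for fat against no fat (0.00819%) and for the interaction of fat and sucrose (0.00819%). At an unadjusted p under 0.05, 9 of 41 members (22.0%) were lower with sucrose and 0 were higher, beside 9.16% of all genes lower and 9.17% higher. The filter itself bears on this count. COL13A1, COL23A1 and COL4A6 reached 1 FPKM only in retinas without sucrose and COL25A1 only in sucrose-fed ones, and COL13A1 and COL23A1 are among the 9. Among the 32 members with a mean of at least 1 FPKM over all 8 retinas, a filter chosen after seeing the data, 7 (21.9%) were lower and 0 higher, beside 9.23% and 9.32% of the genes with such a mean. The corresponding counts were 0 for HFD (4.31% of all genes in either direction), 4 lower and 0 higher for HSD (4.51% and 2.7%), 5 lower and 0 higher for HFSD (4.37% and 3.7%), 0 for fat against no fat (3.2%) and 0 for the interaction (3.74%). With voom on the recovered fragments, 0 members were called in each comparison, and 13 had an unadjusted p under 0.05 with sucrose. By limma on log2(FPKM + 1), the count of 9 with sucrose was 5 without HFSD retina 1, 6 without HSD retina 1 or HFSD retina 2, and 7 to 10 without any of the other retinas. In the same fits the count for HSD was 2 without HSD retina 2, and that for HFSD was 2 without either HFSD retina and 3 without ND retina 2.

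The medians of the members were below 0 on both sucrose diets. The median log2 difference of the 41 members, on the log2(FPKM + 1) scale, was 0.006 (HFD), -0.117 (HSD) and -0.145 (HFSD) against ND, while the medians of all genes tested were 0.006, -0.002 and -0.004. With libraries left out singly, the medians of the members ran from -0.129 to 0.085 (HFD), -0.190 to -0.045 (HSD) and -0.246 to -0.052 (HFSD). For all 4 sucrose-fed retinas against the other 4, the median was -0.102 for the members and -0.007 for all genes, and 26 members (63.4%) were lower, beside 51.3% of all genes. Fat gave nearly the same count, with 25 members (61.0%) lower in the 4 fat-fed retinas, beside 47.4% of all genes. With the filter on the mean, 19 of 32 members (59.4%) were lower with sucrose, beside 51.2% of all genes, and the median was -0.067 with sucrose and -0.094 in HFSD. The retinas overlapped in the median deviation of the members from their own mean, since HFD retina 1 (-0.064) lay below HSD retina 2 (-0.025) and HFSD retina 1 (-0.052). Both HSD retinas lay below both ND retinas for 13 members and above for 3, where 19.7% and 19.3% of all genes did so. Both HFSD retinas lay below for 16 members (39.0%) and above for 2 (4.88%), where 20.6% and 21.6% of all genes did so. Of these 16, COL13A1, COL23A1, COL1A2, COL3A1 and COL5A2 were below 1 FPKM in both HFSD retinas and passed the filter only through other libraries. With the filter on the mean, 10 of 32 members lay below and 2 above for HSD (19.7% and 19.4% of all genes), and 11 and 2 for HFSD (20.6% and 21.8%). In HFD, 6 members (14.6%) lay below and 0 above, beside 13.3% and 12.5% of all genes. Without ND retina 1, the counts below and above were 9 and 15 for HFD (29.3% and 30.2% of all genes), 16 and 7 for HSD (39.5% and 35.8%) and 23 and 12 for HFSD (41.5% and 38.0%), so that in HFD more members lay above than below. Without HSD retina 2 they were 21 and 8 for HSD (31.9% and 32.8%). All 11 integrins had a negative difference for HSD (median -0.188; 50.5% of all genes were negative), although ITGA3 (-0.007) and ITGB7 (-0.009) were near 0, and 7 of 11 had one for HFSD and for sucrose against no sucrose. For HFD, 22 of the 41 members had a positive difference (53.7%, beside 51.2%).

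**Figure D2:**
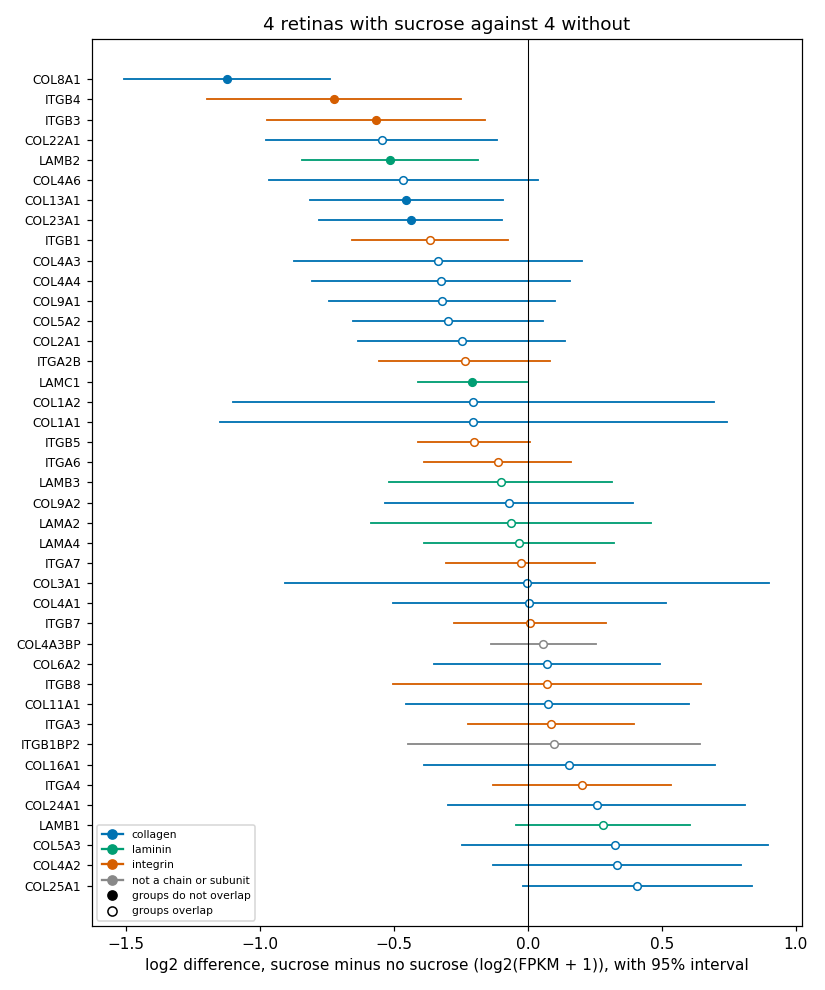
Log2 difference of each member between sucrose-fed retinas (n = 4) and the other 4, in log2(FPKM + 1), with its 95% interval from limma. Filled points are members whose groups do not overlap; the 7 lie below 0, from -1.12 for COL8A1 to -0.209 for LAMC1, and 2 of them (COL13A1 and COL23A1) passed the filter only through retinas without sucrose.

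In 7 members every sucrose-fed retina lay below every retina without sucrose, and in 0 members above, where 6.48% and 6.39% of all genes did so. They were COL8A1, COL13A1, COL23A1, LAMB2, LAMC1, ITGB3 and ITGB4, that is 3 collagens, 2 laminin chains and 2 integrin beta subunits. COL13A1 and COL23A1 passed the filter only through retinas without sucrose, and all their sucrose-fed values were below 1 FPKM. With the filter on the mean, 5 of 32 members were lower and 0 higher, beside 6.53% and 6.46% of all genes. Under the first filter the count was 10 lower and 2 higher without ND retina 1 (11.8% and 11.1% of all genes), 11 and 0 without HSD retina 2 (8.59% and 9.01%), and 13 and 2 without both (14.6% and 14.0%). With fewer retinas more genes separate. Among the untested genes below the limit, COL12A1 (0.170 to 0.425 FPKM without sucrose, 0.517 to 0.720 with it) and ITGA11 lay above, and COL8A2 and ITGB2 below. COL22A1 and ITGB1 overlapped between the groups but had an unadjusted p under 0.05. COL13A1, COL22A1 and COL23A1 are named because of their values.

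COL8A1 encodes a short-chain collagen that forms hexagonal networks in the Descemet membrane of the cornea and under vascular endothelium. Its level was 5.10 and 7.41 FPKM (ND), 4.05 and 3.81 (HFD), 1.93 and 1.47 (HSD) and 2.24 and 1.35 (HFSD), from 542, 713, 440, 378, 165, 138, 278 and 116 fragments in that order. Both ND retinas were highest, both HFD retinas came next, and all 4 sucrose-fed retinas were lowest, with no overlap between ND, HFD and the sucrose diets. The mean was 1.75 ± 0.413 FPKM with sucrose (SD, n = 4) and 5.09 ± 1.64 without. The log2 difference was -1.12 (SE 0.164, 95% interval -1.51 to -0.740), with an adjusted p of 0.0501 by limma, which ranked COL8A1 at place 44 of 12204 and just missed the limit. It passed the limit without ND retina 1 (-1.24, limma adjusted p = 0.0401) and missed it without HSD retina 2 (-1.06, limma adjusted p = 0.140). The adjusted p by limma ranged from 0.0346 to 0.150 over 17 alternatives. Against ND, the differences were -0.538 (HFD), -1.41 (HSD) and -1.37 (HFSD), with limma adjusted p of 0.998, 0.153 and 0.177. The pigment epithelium sum given above had the diet order of COL8A1 (ND, HFD, then both sucrose diets). Much of that sum in HFD was RLBP1 (229 and 186 FPKM), also a Müller glia marker here, and RGR (147 and 218). RPE65 (34.8 and 10.1 in HFD, 12.1 to 25.6 with sucrose), RDH5, TTR, TYRP1 and PMEL overlapped between HFD and the sucrose diets. LRAT and DCT kept that order without overlap. The part of the pigment epithelium in the result was not tested. COL8A2, the other chain of this collagen, was below the limit in every library and was not tested. It was 0.756 and 0.522 FPKM (ND), 0.440 and 0.329 (HFD) and 0.146 to 0.188 with sucrose, from 5 to 32 fragments.

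**Figure D3:**
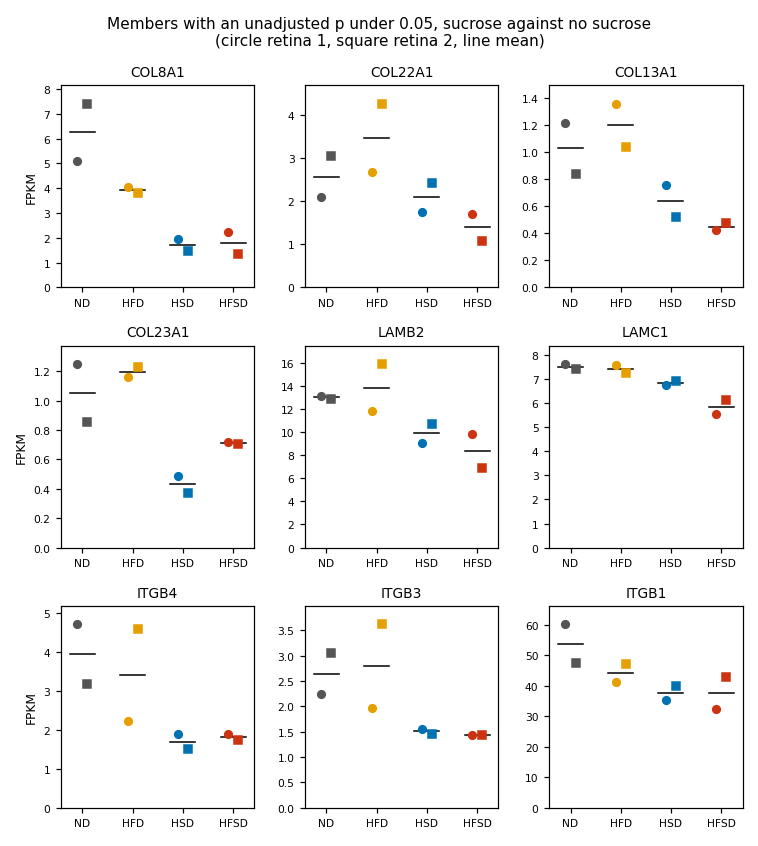
FPKM of the 9 members with an unadjusted p under 0.05 for sucrose against no sucrose, by diet, with every axis starting at 0. Circles are retina 1, squares retina 2 and lines the mean of 2 retinas. COL8A1 separates ND (5.10 and 7.41), HFD (3.81 and 4.05) and the sucrose diets (1.35 to 2.24), while COL22A1 and ITGB1 overlap between the groups.

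The transmembrane collagens COL13A1, COL23A1 and COL25A1 had low levels. Each was tested because of 3 retinas at 1 FPKM or more, all without sucrose for COL13A1 and COL23A1 and all sucrose-fed for COL25A1, so the direction of their differences was favoured by the filter and is a description. COL13A1, found at cell adhesion sites and the neuromuscular junction, had 1.22 and 0.843 FPKM (ND), 1.36 and 1.04 (HFD), 0.757 and 0.519 (HSD) and 0.426 and 0.473 (HFSD). Its log2 difference with sucrose was -0.454 (SE 0.154, limma adjusted p = 0.201). COL23A1 had 1.25 and 0.853 FPKM (ND), 1.16 and 1.23 (HFD), 0.490 and 0.370 (HSD) and 0.722 and 0.702 (HFSD), and its difference was -0.438 (SE 0.146, adjusted p = 0.197). COL25A1 had 0.982 and 0.428 FPKM (ND), 0.525 and 0.894 (HFD), 1.59 and 1.25 (HSD) and 1.35 and 0.849 (HFSD). Its difference from ND was 0.520 in HSD (SE 0.259, limma adjusted p = 0.753) and 0.311 in HFSD, where it overlapped with ND. Since a pseudocount of 1 was added before the logarithm, these differences understate the ratio of genes near 1 FPKM.

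For COL2A1, COL9A1, COL9A2 and COL11A1, chains of collagens II, IX and XI, and for COL5A3, the retinas of each diet overlapped with those of ND. COL2A1, the main chain of the vitreous fibril, was 49.8 and 78.3 FPKM (ND), 72.5 and 101 (HFD), 61.0 and 65.9 (HSD) and 63.4 and 56.0 (HFSD). All 4 sucrose-fed retinas lay inside the range of the others, and the difference with sucrose was -0.248 (95% interval -0.636 to 0.140). COL9A1 was 30.7 and 30.0 FPKM (ND), 30.5 and 51.1 (HFD), 30.7 and 25.3 (HSD) and 32.2 and 22.7 (HFSD), so that HFD retina 2 alone stood above the rest. Its partner chain COL9A2 was 54.5 and 83.7 (ND), 86.0 and 54.5 (HFD), 84.3 and 80.6 (HSD) and 60.5 and 42.7 (HFSD). The ratio of COL9A2 to COL9A1 accordingly ranged from 1.07 in HFD retina 2 to 3.18 in HSD retina 2, with a median of 2.31. These are FPKM ratios, which are per length of gene.

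COL5A3, a chain of collagen V, was 35.5 and 43.3 FPKM (ND), 24.3 and 39.9 (HFD), 35.7 and 61.0 (HSD) and 53.7 and 32.2 (HFSD), and its within-diet SD of 0.454 (log2) exceeded the median of all genes tested, 0.167. COL11A1, which limits fibril width, was 7.73 and 8.48 (ND), 5.64 and 12.7 (HFD), 8.28 and 11.8 (HSD) and 8.15 and 7.48 (HFSD). COL5A2, another chain of collagen V, was 1.06 and 1.1 FPKM (ND), 0.878 and 1.27 (HFD), 0.676 and 1.02 (HSD) and 0.580 and 0.513 (HFSD). Its values on both sucrose diets lay below both ND retinas, with differences of -0.177 in HSD and -0.430 in HFSD (SE 0.214, limma adjusted p of 0.884 and 0.667). HFD retina 2 was the highest library for 11 of 41 members (26.8%, beside 11.9% of all genes) and ND retina 1 for 10 (24.4%, beside 9.98%), whereas HFSD retina 2 was highest for 0 (13.2% of all genes).

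Among the other fibril-associated and fibrillar collagens, COL22A1, a collagen of tissue junctions, was 2.09 and 3.05 FPKM (ND), 2.68 and 4.27 (HFD), 1.76 and 2.42 (HSD) and 1.71 and 1.08 (HFSD). Its difference with sucrose was -0.547 (SE 0.185, limma adjusted p = 0.200), and HSD retina 2 lay above ND retina 1. COL16A1 was higher in both HSD retinas (0.951 and 1.54 FPKM) than in both ND retinas (0.939 and 0.699), by a log2 of 0.296 (SE 0.328, limma adjusted p = 0.870). COL24A1 was higher in both HFSD retinas (1.37 and 1.44) than in ND (1.21 and 0.702), by 0.308 (SE 0.335, limma adjusted p = 0.843). For COL16A1 and COL24A1 the gap to ND was smaller than its standard error.

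COL1A1, COL1A2 and COL3A1, the collagens of fibrous connective tissue, were highest in the same 2 libraries. COL3A1 was 1.30 FPKM in ND retina 1 and 2.21 in HSD retina 2, and 0.183 in ND retina 2, 0.113 and 0.124 in HFD, 0 in HSD retina 1 and 0.00710 and 0.0410 in HFSD. COL1A1 was 1.63 and 2.22 FPKM in the same 2 libraries and 0.0367 to 0.887 in the other 6. COL1A2 was 1.43 and 2.93 in them and 0.0833 to 0.743 in the others. These 3 genes had the largest within-diet SD of the members, 0.685 to 0.729 on the log2 scale. HSD retina 2 was also the library with skeletal muscle genes, and mural cell genes were highest in the same 2 libraries, at 21.4 and 25.2 FPKM against 3.85 to 14.3 in the others. The list of fibroblast and stroma markers, which holds these 3 collagens, summed to 186 to 308 FPKM, with 308 in ND retina 1 and 248 in HSD retina 2. Most of that sum was THY1 (103 to 197 FPKM), which was 119 in HSD retina 2. DCN (decorin) was 16.2 in that retina against 0.310 to 1.80 in the others, with 1.62 in ND retina 1. LUM (lumican) was also highest there, against 14.0 to 19.3 in the others, as was OGN (44.9). Other genes of the list were not highest in HSD retina 2. FMOD was 10.4 there and 14.5 in HFD retina 2. MFAP5 (25.7) and PDGFRA (2.12) were lower there than in ND retina 1 (58.6 and 3.18). The part of these cells in the result was not tested.

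**Figure D4:**
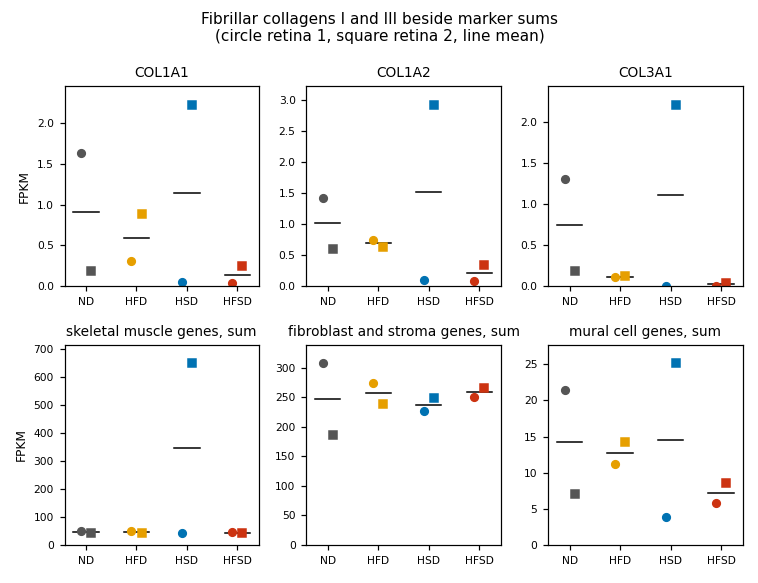
FPKM of COL1A1, COL1A2 and COL3A1 (top) and summed FPKM of skeletal muscle, fibroblast and stroma, and mural cell markers (bottom), by diet; circles are retina 1, squares retina 2 and lines the mean. ND retina 1 and HSD retina 2 are highest for the 3 collagens and the mural sum, and HSD retina 2 alone for muscle (650 FPKM).

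The fold rule of the study, a ratio of mean FPKM + 1 over that of ND above 1.54 or below 0.65, was passed downward by 1 member for HFD (1.16% of all genes), 2 for HSD (3.54%) and 5 for HFSD (3.54%). It was passed upward by 0 members, beside 1.38%, 1.76% and 1.52% of all genes. The member in HFD was COL3A1 (ratio 0.643). Those in HSD were COL8A1 (0.372) and ITGB4 (0.545), and those in HFSD were COL8A1 (0.386), ITGB4 (0.571), COL3A1 (0.588), COL1A1 (0.599) and COL1A2 (0.600). With any 1 ND or diet retina left out, more members passed the rule in each diet, as given in the closing section. Collagens I and III passed the filter only through ND retina 1 and HSD retina 2, and their value depended on ND retina 1. Without that retina the log2 difference in HFSD was -0.064 for COL1A1, -0.414 for COL1A2 and -0.208 for COL3A1, compared with -0.636, -0.713 and -0.687 with it, and that of COL3A1 in HFD was -0.080 compared with -0.560.

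Collagen IV chains of basement membranes were detected as COL4A1, COL4A2, COL4A3, COL4A4 and COL4A6. COL4A1 was 2.71 and 1.06 FPKM (ND), 1.85 and 1.79 (HFD), 1.58 and 2.53 (HSD) and 1.90 and 1.33 (HFSD). COL4A2, its partner in the common collagen IV trimer and its neighbour in the RefSeq rabbit annotation (mOryCun1.1), was 5.47 and 2.43 (ND), 3.67 and 4.22 (HFD), 4.53 and 4.65 (HSD) and 6.02 and 5.18 (HFSD). The ND retinas enclosed the other 6 values of COL4A1 and all but that of HFSD retina 1 for COL4A2. The difference with sucrose was 0.005 for COL4A1 (95% interval -0.505 to 0.514) and 0.331 for COL4A2 (-0.131 to 0.794), so that a change of up to these bounds cannot be told from none. The ratio of COL4A2 to COL4A1 was 1.84 to 3.89 with a median of 2.32, and was highest in the HFSD retinas (3.18 and 3.89). Markers of vascular endothelium (8 of 17 above the limit) summed to 141 FPKM in ND retina 1, where COL4A1 was highest, and to 130 to 170 in the others. Most of that sum was KDR (75.8 to 131 FPKM) and FLT1, whereas CLDN5, VWF, EMCN, ENG and PECAM1, 5 of the 8 genes, were highest in ND retina 1 (CLDN5 at 28.0 FPKM, against 0.534 to 20.3 elsewhere). The part of vessels in the result was not tested.

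COL4A3 and COL4A4, which share the trimer of mature retinal and kidney basement membranes and are also neighbours in that annotation, were 1.46 to 4.76 and 1.93 to 4.42 FPKM. Both were highest in HFD retina 2. Both HFSD retinas lay below both ND retinas for the 2 genes, with differences of -0.207 (SE 0.325) and -0.297 (SE 0.290), and the limma adjusted p were 0.891 and 0.821. For COL4A4 both HSD retinas (2.3 and 1.94) also lay below both ND retinas (3.70 and 3.06), with a difference of -0.487 (limma adjusted p = 0.771). COL4A6 ranged from 0.0757 to 1.21 FPKM and the microfibril collagen COL6A2 from 0.719 to 1.57.

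Laminin beta 2 and gamma 1 were the most abundant laminin chains, and both had lower values with sucrose. LAMB2, the beta chain of retinal and synaptic laminins, was 13.1 and 12.9 FPKM (ND), 11.8 and 15.9 (HFD), 9.09 and 10.7 (HSD) and 9.81 and 6.92 (HFSD). All 4 sucrose-fed retinas lay below the other 4, with a mean of 9.14 ± 1.62 FPKM against 13.4 ± 1.78 (SD, n = 4 each). The log2 difference was -0.516 (SE 0.140, 95% interval -0.844 to -0.188, limma adjusted p = 0.153). LAMC1, the gamma chain of most laminins, was 7.64 and 7.43 (ND), 7.58 and 7.27 (HFD), 6.78 and 6.93 (HSD) and 5.56 and 6.15 (HFSD). Its difference was only -0.209 (SE 0.087, limma adjusted p = 0.264), and its within-diet SD of 0.050 was the smallest of all members.

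LAMB1, the beta chain that can stand in the place of LAMB2 in a trimer, pointed the other way. It was 1.33 and 1.05 FPKM (ND), 1.12 and 0.977 (HFD), 1.50 and 1.75 (HSD) and 1.75 and 1.31 (HFSD), a difference of 0.280 with sucrose (95% interval -0.045 to 0.605, limma adjusted p = 0.325). The ratio of LAMB2 to LAMB1 in FPKM was 9.79 and 12.3 (ND), 10.6 and 16.3 (HFD), 6.07 and 6.13 (HSD) and 5.62 and 5.30 (HFSD). The ratio was at most 6.13 in the sucrose-fed retinas and at least 9.79 in the others; it was 1 of 7 chain ratios computed and is given without a test. LAMA2, the alpha chain of muscle and glial laminins, was 3.16 and 4.79 (ND), 2.35 and 5.59 (HFD), 3.62 and 3.12 (HSD) and 3.88 and 3.83 (HFSD), with a difference of -0.063 (-0.586 to 0.460). LAMB3, a chain of epithelial laminin, was 3.94 and 2.46 (ND), 3.20 and 3.08 (HFD), 3.64 and 2.37 (HSD) and 3.31 and 2.29 (HFSD). In both genes each diet overlapped with ND. LAMA4, a chain of vessel laminin, ranged from 0.679 to 1.23.

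Among the integrin beta subunits, ITGB4, ITGB3 and ITGB1 had lower values with sucrose. ITGB4 pairs with alpha 6 in the hemidesmosome, the junction of epithelia with laminin. It was 4.70 and 3.17 FPKM (ND), 2.22 and 4.57 (HFD), 1.88 and 1.50 (HSD) and 1.89 and 1.74 (HFSD). The sucrose-fed retinas lay between 1.50 and 1.89 and the others at 2.22 or more, and the difference was -0.725 (SE 0.202, 95% interval -1.20 to -0.252, limma adjusted p = 0.158). Against ND it was -0.861 in HSD and -0.792 in HFSD (limma adjusted p of 0.559 and 0.564). ITGB3, the beta subunit of the vitronectin and platelet receptors, was 2.24 and 3.05 (ND), 1.96 and 3.62 (HFD), 1.56 and 1.45 (HSD) and 1.44 and 1.43 (HFSD), with a difference of -0.568 (SE 0.174, limma adjusted p = 0.175). The 4 sucrose-fed retinas differed little among themselves in ITGB3, while the 2 HFD retinas differed widely.

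ITGB1, the subunit shared by most laminin and collagen receptors, was 60.1 and 47.3 FPKM (ND), 41.2 and 47.0 (HFD), 35.4 and 39.9 (HSD) and 32.2 and 42.7 (HFSD). Every retina of the other diets lay below both ND retinas, although HFSD retina 2 (42.7) lay above HFD retina 1 (41.2). The difference with sucrose was -0.367 (SE 0.125, 95% interval -0.659 to -0.075, limma adjusted p = 0.202), and against ND it was -0.272 (HFD), -0.493 (HSD) and -0.512 (HFSD). ITGB5, which serves the uptake of photoreceptor outer segments by the pigment epithelium, was 73.6 and 88.0 (ND), 86.4 and 77.1 (HFD), 71.0 and 65.6 (HSD) and 74.5 and 70.9 (HFSD), a difference of -0.200 (-0.409 to 0.008). ITGB8, which activates TGF-beta, was 22.4 and 9.15 in ND and 11.5 to 20.6 in the other diets, and its ND retinas enclosed all the others. ITGB7, a leukocyte subunit, was 5.75 to 7.53 in all 8 retinas, with a difference of 0.006 (-0.277 to 0.290).

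ITGA6, the most abundant alpha subunit by the name rule and a laminin receptor, was 6.92 and 7.15 FPKM (ND), 5.68 and 7.08 (HFD), 5.11 and 6.42 (HSD) and 7.06 and 5.99 (HFSD). Its difference with sucrose was -0.112 (-0.387 to 0.162), so that its partner ITGB4 was lower and ITGA6 itself overlapped between the groups; whether the 2 differ in response was not tested. ITGA3 was higher in both HFSD retinas (4.23 and 3.03) than in ND (3.01 and 2.57), by 0.279 (SE 0.188, limma adjusted p = 0.743). ITGA4, a leukocyte and endothelial subunit, was lower in both HFD retinas (1.56 and 2.51) than in ND (2.95 and 2.92), by a log2 difference of -0.390 (SE 0.202, limma adjusted p = 0.998). ITGAV, which partners ITGB3, ITGB5 and ITGB8 and lies outside the name rule, was 11.0 to 22.4 FPKM, with a difference of -0.260 (SE 0.170, limma adjusted p = 0.442). ITGA7 ranged from 2.67 to 3.82 and ITGA2B, the platelet subunit, from 1.43 to 2.38. Of the genes that only share the name, COL4A3BP was 35.5 to 43.1 FPKM, and ITGB1BP2 was highest at 1.77 in HSD retina 2, the library with skeletal muscle genes, against 0.478 to 1.05 in the others.

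Partner genes outside the families were counted from lists. Of 12 tested genes of matrix breakdown and its inhibitors, 1 was called lower with sucrose and 0 higher, beside 0.344% of all genes called in either direction. TIMP3, a metalloproteinase inhibitor of Bruch's membrane, was 18.1 and 10.4 FPKM (ND), 9.62 and 6.02 (HFD), 1.84 and 3.59 (HSD) and 2.16 and 2.46 (HFSD). It fell by 1.71 on the log2 scale (SE 0.236, limma adjusted p = 0.0437), and the call was lost in 12 of 17 alternatives, with adjusted p of 0.0322 to 0.166 over all of them. Among them were the fits without ND retina 1 (0.0524) and without HSD retina 2 (0.0821). TIMP1 (-0.612, limma adjusted p = 0.0775) and TIMP4 (-0.889, 0.0928) had values below all retinas without sucrose in all 4 sucrose-fed retinas, but did not pass.

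Of 11 tested basement membrane partners, 0 were called, and 6 had a positive and 5 a negative difference with sucrose. SPARC, a secreted collagen-binding protein, was 621 and 229 FPKM (ND), 331 and 301 (HFD), 78.4 and 70.3 (HSD) and 84.9 and 129 (HFSD), a difference of -1.95 (SE 0.297, limma adjusted p = 0.0576; 0.00822 to 0.179 over 17 alternatives). The nidogen NID2, which joins laminin to collagen IV, was 1.09 to 1.46 without sucrose and 1.59 to 2.29 with it (0.368, adjusted p = 0.234). Of 19 tested collagen processing genes, 0 were called, with 13 positive and 6 negative differences. LOXL1, a lysyl oxidase that cross-links matrix, was 10.8 and 17.0 (ND), 17.3 and 20.4 (HFD), 5.20 and 12.5 (HSD) and 4.99 and 4.54 (HFSD) (-1.23, SE 0.252, limma adjusted p = 0.0983). Without ND retina 1 and HSD retina 2 together its difference was larger, at -1.66. Of 19 tested cytoplasmic partners of integrins, 0 were called, and 13 of the 19 had a negative difference, beside 51.3% of all genes. At an unadjusted p under 0.05 by limma, 4 were lower (VCL, PXN, ACTN1 and PARVA), from -0.420 for vinculin (VCL) to -0.242 for PARVA, and 1 was higher, talin 2 (TLN2, 0.312), with adjusted p of 0.179 to 0.212, beside 9.16% of all genes lower and 9.17% higher. Of 3 tested integrin subunits outside the name rule (ITGAE, ITGAL and ITGAV), 0 were called. The sums of pigment epithelium, Müller glia and astrocyte markers were lower in all 4 sucrose-fed retinas, as given above. Gene by gene, all 4 lay below the others for 4 of 13, 4 of 12 and 1 of 6 of these markers, beside 6.48% of all genes. Most of the astrocyte sum was ALDOC (3230 to 6130 FPKM), and GFAP overlapped (12.1 in ND retina 2 and 69.5 in HFSD retina 2). The microglia sums overlapped (17.7 in ND retina 2 and 18.3 in HFSD retina 2), as did the myelin sums (98.7 in ND retina 2 and 160 in HFSD retina 2). The part of these cell types in the values of these genes was not tested.

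**Figure D5:**
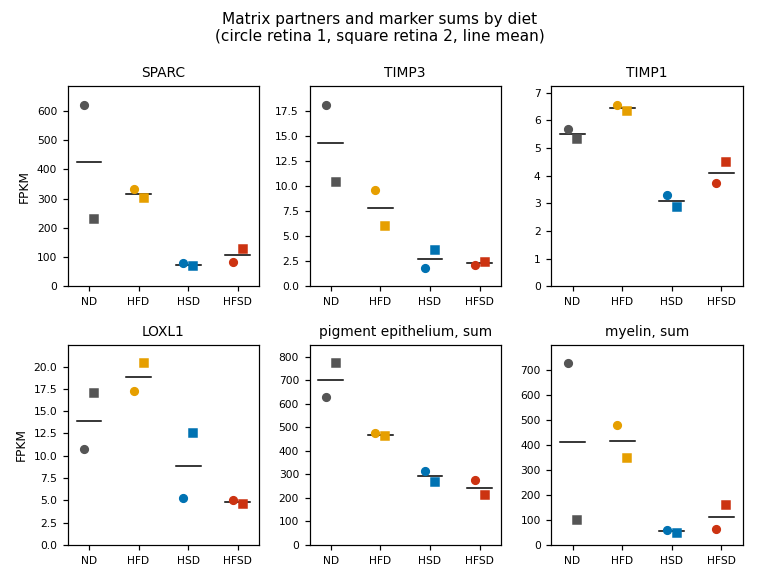
FPKM of SPARC, TIMP3, TIMP1 and LOXL1 and summed FPKM of pigment epithelium and myelin markers, by diet; circles are retina 1, squares retina 2 and lines the mean. The sucrose-fed retinas have 70.3 to 129 FPKM of SPARC and the others 229 to 621; the pigment epithelium sum is 213 to 314 with sucrose and 461 to 774 without.

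Across the 4 fat-fed retinas (HFD and HFSD) against the 4 others (ND and HSD), the groups overlapped for all 41 members (1.34% of all genes did not overlap), and the median difference was -0.034 compared with 0.007 for all genes. The largest difference was that of COL3A1, -0.684 (95% interval -1.59 to 0.221), followed by COL1A2 and COL1A1. All 3 passed the filter only through ND retina 1 and HSD retina 2, which had no added fat, so that the direction was favoured by the filter. For COL8A1 it was -0.250 (-0.634 to 0.134). The interaction of fat and sucrose, that is the effect of fat in sucrose-fed retinas minus its effect without sucrose, was -0.706 for COL9A2 (-1.64 to 0.223) and 0.577 for COL8A1 (-0.191 to 1.35), with limma adjusted p of 0.999 for both. Of the 11 integrins 9 had a positive interaction (51.9% of all genes) and of the 22 collagens 16 a negative one (48.1%), with 0 at an unadjusted p under 0.05.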

How the data were processed

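RNA sequencing of 8 retinas (4 diets, 2 retinas each) was read from 1 deposited table. Per the paper and the labels, the authors checked reads with FastQC, aligned them to the rabbit genome by TopHat2, kept uniquely mapped reads and computed FPKM per gene; the deposited FPKM values are used as given. Genome build, annotation and strand setting are not given in the sources used here. No column lacked a sample (0 columns). FPKM steps gave whole fragments for 99.99% of 142752 values above 0, which supplied depths (fragments may include PCR copies).

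Genes with at least 1 FPKM in 2 libraries were tested on log2(FPKM + 1) by limma 3.58.1 in R 4.3.3, with a mean-variance trend and 1 model of all 8 libraries; Benjamini-Hochberg adjustment covered every gene tested, with a limit of 0.05 for a call. The procedure was tested on simulated data. No paired libraries of a diet were duplicates (chi-square per gene of at least 16.5). Members, lists and alternatives were chosen with earlier results of these data known. Genes described singly were those past the fold rule, the 3 largest rises and falls without overlap in each comparison, the 5 most abundant of each family, and COL4A1 and COL4A2; others were named after their values were seen. Symbols of 61 of 62 members were found in RefSeq. Alternatives changed the pseudocount (0.1), filter, scaling, variance model, unit (voom on fragments), samples fitted and libraries left out. No sequence is shown, since none was used here.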

Additional observations from a re-analysis of the deposited data

Results flagged for a closer look

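ITGB6, an epithelial integrin subunit below the limit on level and therefore outside the comparisons, reached 0.91 FPKM in HSD retina 2, from 37 fragments, whereas the higher ND retina had 0.024 FPKM. The same retina carried the skeletal muscle genes and high COL1A1, COL1A2 and COL3A1. It was singled out as a signal in data the comparisons did not use, above the level in the ND retinas.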

How the results depend on the processing

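For 46 differences of members given in the report, 680 alternative values were computed, of which 665 kept their direction and their side of the limit, 4 passed it and 11 reversed. The reversed values were of sucrose differences close to 0 and not called: COL4A1 without ND replicate 2 (-0.206), HFD replicate 2 (-0.002), HSD replicate 2 (-0.108) or HFSD replicate 1 (-0.073), ITGB7 by voom (-0.001) or without ND replicate 2 (-0.039), HFD replicate 1 (-0.056), HSD replicate 1 (-0.078) or HFSD replicate 2 (-0.027), and LAMA2 without ND replicate 2 (0.056) or HFD replicate 2 (0.181), within ranges of -0.206 to 0.216, -0.078 to 0.137 and -0.307 to 0.181 when libraries were left out. The 4 that passed were all COL8A1 with sucrose, with limma adjusted p of 0.0486 without a variance trend, 0.0412 with robust moderation, 0.0346 with only the groups compared and 0.0401 without ND replicate 1, so that 1 member was called in each of these, and 0 to 1 when libraries were left out singly; the range over 17 alternatives was 0.0346 to 0.150. No other comparison called a member in any alternative run. The median difference of the members ran from -0.129 to 0.085 in HFD, -0.190 to -0.045 in HSD (-0.045 without ND retina 1, against -0.117), -0.246 to -0.052 in HFSD, -0.206 to -0.055 with sucrose, -0.099 to 0.017 with fat and -0.198 to 0.082 for the interaction when libraries were left out singly, against a within-diet SD of 0.095, and the sign turned in HFD without ND retina 2 (-0.099) or HFD retina 2 (-0.129), with fat without ND retina 1 (0.003) or HFD retina 1 (0.017), and of the interaction without ND retina 2 (0.047), HFD retina 2 (0.075) or HSD retina 2 (0.082). Members with an unadjusted p under 0.05 numbered 1 to 3 in HFD, 2 to 5 in HSD, 2 to 5 in HFSD, 5 to 10 with sucrose, 0 to 3 with fat and 0 to 4 for the interaction in the same fits. The fold rule was passed by 2 (HFD), 8 (HSD) and 11 (HFSD) members with a pseudocount of 0.1, by 0, 1 and 1 with limits of 2 and 0.5, and by 2 to 5, 5 to 8 and 6 when ND or diet libraries were left out singly: in HSD 8 without ND retina 1, 6 without ND retina 2, 7 without HSD retina 1 and 5 without HSD retina 2, and in HFD 2, 3, 5 (without HFD retina 1) and 2. Without ND retina 1 and HSD retina 2 together, an alternative chosen after seeing the data, 0 members were called and 8 had an unadjusted p under 0.05 with sucrose.

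Replicate numbers did not pair the samples (correlations of -0.165 to 0.0813 between diets). With a replicate block, 0 members were called, 8 had an unadjusted p under 0.05 with sucrose, COL8A1 had an adjusted p of 0.086, and TIMP3 (0.0717) and PDE6C (0.0584) lost their calls. The cause was not tested.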
